A study of Homo sapiens with 21 samples.

Results

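IFIT1, IFIT2, IFIT3, IFIT5, IFITM1, IFITM2, IFITM3, IFI44 and IFI44L are antiviral effector genes of the interferon response, and their transcripts were followed over 7 groups of SH-SY5Y cultures on 21 PrimeView arrays. The genes were taken by name: 20 probe sets of the 44988 with a single gene symbol belong to them, and each gene was read from its brightest probe set on average over the arrays, which gave 9 of 18132 genes. SH-SY5Y is a human neuroblastoma line that can be turned into neuron-like cells. Its cells were wild type (WT) or carried V717F in the amyloid precursor protein (APP), a change known from familial Alzheimer's disease. Every culture was differentiated for 3 to 4 days in BDNF, a neurotrophic factor, at 50 ng/mL, together with retinoic acid at 10 µM, and was then kept for 72 h with a compound or its vehicle, at 0.1% DMSO in all of them.

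The 7 groups held 3 arrays each: APP-V717F cells with AG494 (APP_AG494), with NOSCA (APP_NOSCA) and with DMSO (APP_DMSO), and wild-type cells with AG494 (WT_AG494), with NOSCA (WT_NOSCA), with PALBO (WT_PALBO) and with DMSO (WT_DMSO). AG494 blocks the tyrosine kinase of the EGF receptor, and NOSCA and PALBO are written as in the labels. The labels give no dose, so that compounds are set side by side at unknown doses. The genotype comparison sets 1 mutated line against 1 wild-type line, so that the mutation and any other difference between the lines cannot be told apart. The series describes 3 independent experiments, and p-values measure the spread between these cultures.

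Interferons bind cell surface receptors that signal through Janus kinases. The signal ends on a promoter element, the interferon-stimulated response element (ISRE), where IRF9 is among the bound factors, and switches on a large set of antiviral genes. IFIT proteins are cytoplasmic and bind RNA: IFIT1 holds RNA whose cap lacks host methylation, IFIT2 and IFIT3 form complexes with it, and IFIT5 binds RNA with a triphosphate end. IFITM proteins sit in membranes and hinder the fusion of viruses with them, IFITM1 mainly at the cell surface and IFITM2 and IFITM3 mainly in endosomes. IFI44 and IFI44L are related cytoplasmic proteins that have been reported to hold back proliferation and to dampen the interferon response.

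The genes lie in 3 clusters in RefSeq's annotation of GRCh38.p14. IFIT2 (chr10:89302046-89309271), IFIT3 (chr10:89327997-89340968), IFIT1 (chr10:89392623-89406487) and IFIT5 (chr10:89414568-89420997) follow each other on chromosome 10. IFITM2 (chr11:307816-309395), IFITM1 (chr11:314040-315272) and IFITM3 (chr11:319676-320860) neighbour each other on chromosome 11. IFI44L (chr1:78620448-78646145) and IFI44 (chr1:78649789-78664078) are adjacent on chromosome 1.

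The promoters are shown because every gene but IFITM2 was higher on all APP than on all WT arrays, as described below. A further reason is that the ISRE is the element through which interferon is known to act on these genes. RefSeq windows were matched by symbol for 7 of the 9 genes and were searched over the 250 bases before each transcript start. IFIT2 and IFITM2 had no window. The windows of IFIT3 and the other window of IFI44 were searched too and are not printed. Each line gives the strand of the gene from 5′ to 3′, and capitals mark the core of the ISRE, which was searched as GAAA, any 2 bases and GAAA, or TTTC, any 2 bases and TTTC where it lies on the other strand.
IFIT1 (chr10:89392373-89392622, plus strand): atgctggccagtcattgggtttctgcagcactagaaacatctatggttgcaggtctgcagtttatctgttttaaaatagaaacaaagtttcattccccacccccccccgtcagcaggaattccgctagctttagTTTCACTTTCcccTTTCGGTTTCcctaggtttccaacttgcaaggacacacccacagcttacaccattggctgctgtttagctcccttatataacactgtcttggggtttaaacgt
IFIT5 (chr10:89414318-89414567, plus strand): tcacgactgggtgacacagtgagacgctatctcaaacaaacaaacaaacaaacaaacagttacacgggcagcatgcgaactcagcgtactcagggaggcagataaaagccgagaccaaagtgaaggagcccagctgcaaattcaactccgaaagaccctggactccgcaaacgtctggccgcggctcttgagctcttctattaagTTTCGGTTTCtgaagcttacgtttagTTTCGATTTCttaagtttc
IFITM1 (chr11:313790-314039, plus strand): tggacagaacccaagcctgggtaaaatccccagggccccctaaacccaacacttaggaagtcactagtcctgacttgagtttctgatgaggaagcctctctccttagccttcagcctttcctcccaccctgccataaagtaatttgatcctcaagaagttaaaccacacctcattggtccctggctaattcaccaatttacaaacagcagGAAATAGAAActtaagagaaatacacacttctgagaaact
IFITM3 (chr11:320861-321110, minus strand): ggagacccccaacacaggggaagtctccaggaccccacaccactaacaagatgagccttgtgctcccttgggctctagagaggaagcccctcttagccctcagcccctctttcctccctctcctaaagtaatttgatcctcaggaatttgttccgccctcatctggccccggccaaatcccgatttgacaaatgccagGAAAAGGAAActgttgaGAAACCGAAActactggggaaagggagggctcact
IFI44 (chr1:78649539-78649788, plus strand): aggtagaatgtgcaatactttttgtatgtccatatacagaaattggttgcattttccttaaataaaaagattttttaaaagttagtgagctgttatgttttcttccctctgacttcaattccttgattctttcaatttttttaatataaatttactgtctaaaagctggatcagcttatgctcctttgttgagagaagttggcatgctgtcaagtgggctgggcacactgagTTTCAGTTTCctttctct
IFI44L (chr1:78620198-78620447, plus strand): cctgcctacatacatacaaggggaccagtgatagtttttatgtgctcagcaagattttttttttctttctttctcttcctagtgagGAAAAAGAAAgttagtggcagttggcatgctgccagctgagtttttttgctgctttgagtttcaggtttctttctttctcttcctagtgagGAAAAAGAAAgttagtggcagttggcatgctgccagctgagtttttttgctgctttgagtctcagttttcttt

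The core was found in 9 of the 9 windows of these 7 genes, where IFIT3 and IFI44 each have 2 windows, and in 1061 of all 35116 RefSeq windows (3.02%). A longer form, which is the core followed by CT, was found on either strand in 8 of the 9 windows and in 6 of the 7 genes, the exception being IFI44L. It occurred in 79 of all windows (0.225%). Counted back from the transcript start, the nearest core within the printed bases ended at -9 in IFI44, at -10 in IFIT5, at -26 in IFITM3, at -31 in IFITM1, at -64 in IFI44L and at -94 in IFIT1. The palindrome TTCNNNGAA, the core of the gamma-activated site (GAS), was found in 1 of the 9 windows, that of IFITM1, and in 6.57% of all windows. These are matches of letters and no measurement of binding.

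The values are log2 intensities, so that 1 unit is a 2-fold difference in signal, and they have no detection call. Array medians lay between 7.88 and 8.03. Probe sets for 341 olfactory receptor genes, whose main site of expression is the olfactory epithelium, had array medians of 4.96 to 5.32 and 95th percentiles of 5.72 to 6.09, as a description of dim signal. Background signal can compress a fold where 1 group is dim. Levels of different genes cannot be set against each other, since probe sets differ in brightness. A gene is called changed at an adjusted p under 0.05 in limma over all 18132 genes, and differences are given on the log2 scale with the fit's standard error (SE). The sample titles number the cultures in 3 series of 10, called runs here, each with 1 array of every group. Arrays of a run deviated together from their group means, so that fits with the run as a block are given where they change a call.

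The neuroblast identity of the line was visible in every group, with a mean over 10 measured markers between 11.84 and 12.17 on all arrays. Between APP_DMSO and WT_DMSO, CHGA was higher and DBH lower among them. Of 10 immune cell markers, none was called in that comparison in limma and none had an unadjusted p under 0.05, and the mean of the list stayed between 6.10 and 6.29 on all arrays. PTPRC, which encodes the common leukocyte antigen CD45, was at 5.04 ± 0.09 in APP_DMSO and 4.98 ± 0.09 in WT_DMSO (SD, n = 3 each). None of 5 endothelial and 5 epithelial markers was called, with 0 and 1 of them at an unadjusted p under 0.05. Of 8 fibroblast markers, 2 were higher in APP_DMSO (DCN, by 1.55, and FAP, by 0.55) and 3 lower (COL1A1 most, at -1.19), with list means of 9.48 to 9.62 in APP_DMSO and 9.44 to 9.71 in WT_DMSO. Of 4 glial markers, S100B was lower in APP_DMSO (-1.01), with list means of 6.77 to 6.97 in APP_DMSO and 7.19 to 7.26 in WT_DMSO. The part of these markers in the results below was not tested. APP transcript had a log2 fold change of -0.28 between APP_DMSO and WT_DMSO in limma (adjusted p = 0.041). It was not called between APP_AG494 and WT_AG494 (-0.15, adjusted p = 0.36) or between APP_NOSCA and WT_NOSCA (-0.04, adjusted p = 0.85). The array does not read the mutation itself.

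Under vehicle, 8 of the 9 genes were higher in the APP-V717F line and none was lower. IFITM1, IFI44L, IFI44 and IFIT1 had the largest log2 fold changes, between 3.68 and 4.25, and IFITM2 alone did not pass the threshold. For comparison, 5.2% of all genes were called higher and 4.05% lower between APP_DMSO and WT_DMSO. The median log2 fold change of the 9 genes was 1.67, beside 0.02 over all genes. In bulk cultures, more cells that express a gene and more RNA per cell cannot be told apart.

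**Figure D1:**
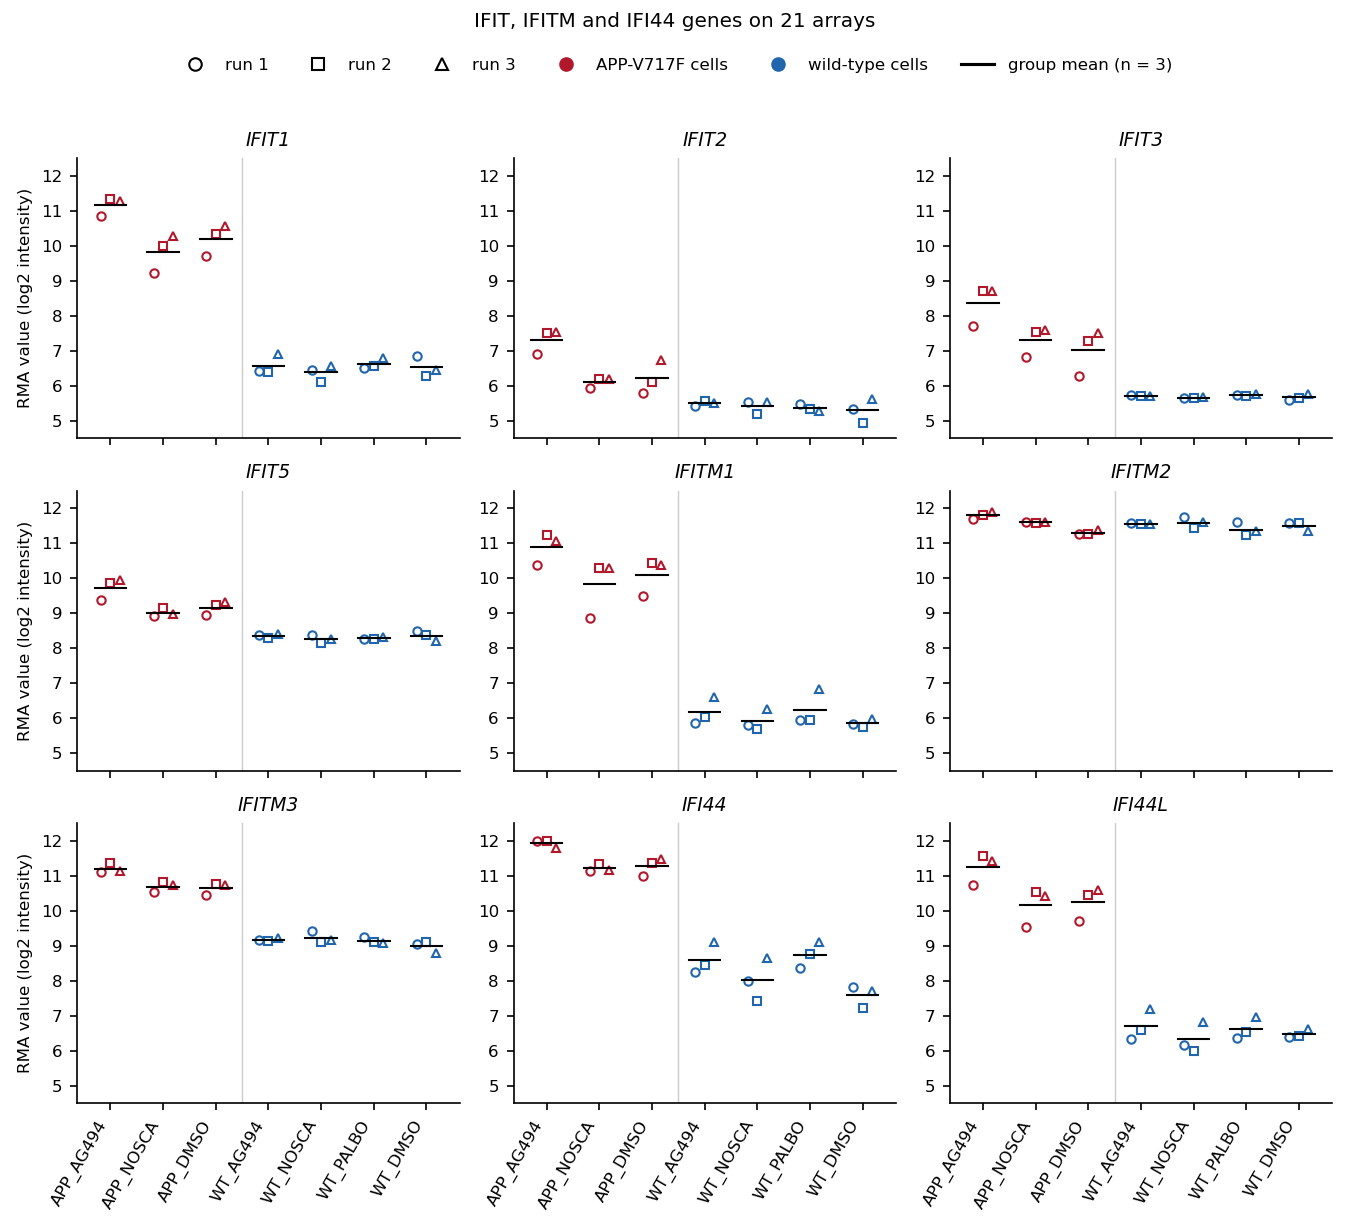
Log2 intensity (y axis) of each gene on the 21 arrays, by group (x axis), with APP-V717F groups in red and wild-type groups in blue. Circles, squares and triangles are the arrays of runs 1, 2 and 3, and bars are means of 3 arrays. All 9 APP arrays lie above all 12 WT arrays for every gene but IFITM2.

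Among the IFIT genes, IFIT1 differed most. It was at 9.71, 10.33 and 10.57 on the APP_DMSO arrays of runs 1, 2 and 3, against 6.84, 6.28 and 6.43 on the WT_DMSO arrays. The groups lay far apart, and the 3 WT_DMSO values were just above the dim range. IFIT1 rose by 3.68 on the log2 scale (SE 0.25, adjusted p = 9.6e-09), a measured 12.9-fold difference.

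IFIT3 was at 6.27, 7.29 and 7.50 in APP_DMSO, against 5.58, 5.65 and 5.77 in WT_DMSO. Its APP_DMSO values were all higher but spread over more than 1 unit, with the run 1 array lowest, while the WT_DMSO values were tight and dim. The log2 fold change was 1.36 (SE 0.27, adjusted p = 0.0024). IFIT2 was at 5.79, 6.10 and 6.74 in APP_DMSO, against 5.32, 4.92 and 5.62 in WT_DMSO. The groups did not overlap, but the lowest APP_DMSO array was only slightly above the highest WT_DMSO array. IFIT2 rose by 0.92 (SE 0.21, adjusted p = 0.0066), and with only these 6 arrays in the fit the adjusted p was 0.094.

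IFIT5, unlike the other IFIT genes, had clear signal in wild-type cells too. It was at 8.95, 9.22 and 9.31 in APP_DMSO, against 8.49, 8.38 and 8.21 in WT_DMSO. All APP_DMSO values were higher, by less than 1 unit on average. The log2 fold change was 0.80 (SE 0.12, adjusted p = 0.00021), the smallest among the 8 genes that passed.

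Of the IFITM genes, IFITM1 and IFITM3 rose and IFITM2 did not pass. IFITM1 was at 9.50, 10.44 and 10.37 in APP_DMSO, against 5.83, 5.75 and 5.97 in WT_DMSO. It was bright on every APP_DMSO array and dim on every WT_DMSO array. Its log2 fold change of 4.25 (SE 0.35, adjusted p = 1.2e-07), a measured 19.1-fold difference, was the largest of the 9 genes.

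IFITM3 was at 10.46, 10.77 and 10.73 in APP_DMSO, against 9.06, 9.11 and 8.79 in WT_DMSO. Both groups were bright and tight, and did not overlap. IFITM3 rose by 1.67 (SE 0.11, adjusted p = 5.5e-09).

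IFITM2 was at 11.26, 11.26 and 11.37 in APP_DMSO, against 11.58, 11.57 and 11.35 in WT_DMSO. It was bright in both groups, and the groups overlapped through the run 3 arrays. The log2 fold change was -0.21 (SE 0.096, adjusted p = 0.23). The IFITM genes are close relatives in sequence. The probe sets of IFITM2 and IFITM3 and the chosen one of IFITM1 have names ending in _x_at. This ending marks sets with probes that may match other transcripts, so that the separation of these 3 transcripts is uncertain. The only probe set of IFIT3 has the same ending, so that its values may hold signal of other transcripts too.

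IFI44 and IFI44L both rose. IFI44 was at 11.00, 11.38 and 11.48 in APP_DMSO, against 7.83, 7.23 and 7.71 in WT_DMSO. The groups were far apart, and WT_DMSO values were above the dim range. IFI44 rose by 3.70 (SE 0.26, adjusted p = 1.5e-08). IFI44L was at 9.72, 10.45 and 10.61 in APP_DMSO, against 6.38, 6.41 and 6.62 in WT_DMSO. Its groups were as clearly separated, with the run 1 array again lowest in APP_DMSO. IFI44L rose by 3.79 (SE 0.30, adjusted p = 7.2e-08).

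The genes' other probe sets were read in a fit over all probe sets. Of the 20, 18 had a positive genotype difference under DMSO and 17 were called higher. The 6 probe sets of IFI44 were all called higher, with 3 between 3.67 and 3.73, 1 at 1.97 and 2 dim ones at 0.69 and 0.71. The 3 probe sets of IFI44L gave 3.69 to 4.48, both of IFITM1 gave 4.25 and 4.53, and both of IFIT5 gave 0.80 and 0.98. For IFIT2, the dimmer probe set gave 0.18 and was not called. Both IFITM2 probe sets were negative, at -0.29 and -0.21, and neither was called.

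The genotype difference was also present under both compounds that were given to both lines. With AG494, 8 of the 9 genes were higher in APP_AG494 than in WT_AG494 and none lower, where 4.1% of all genes were called higher and 4.92% lower. Their median log2 fold change was 2.67, beside 0.02 over all genes. IFITM1 differed by 4.73, IFIT1 by 4.59, IFI44L by 4.53, IFI44 by 3.33, IFIT3 by 2.67, IFITM3 by 2.04, IFIT2 by 1.82 and IFIT5 by 1.36, with adjusted p-values of 6.9e-06 or less. The largest of these was a measured 26.4-fold difference. IFITM2 differed by 0.25 (SE 0.096, adjusted p = 0.13), although its 3 APP_AG494 arrays lay above its 3 WT_AG494 arrays. Beside this, the immune marker CD68 (0.45) and the endothelial marker PECAM1 (0.34) were higher in APP_AG494, each as 1 of its list. The immune list mean was 6.22 to 6.26 in APP_AG494 and 6.10 to 6.22 in WT_AG494, and the endothelial one was 6.33 to 6.51 in APP_AG494 and 6.21 to 6.26 in WT_AG494. S100B (-0.77) was lower, and of 8 fibroblast markers 1 was higher (FAP, 0.58) and 2 were lower (COL1A1 most, at -0.92). Their part was not tested.

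With NOSCA, 7 of the 9 genes were higher in APP_NOSCA than in WT_NOSCA and none lower, where 3.56% of all genes were called higher and 3.65% lower. IFITM1 differed by 3.91, IFI44L by 3.84, IFIT1 by 3.45, IFI44 by 3.20, IFIT3 by 1.66, IFITM3 by 1.46 and IFIT5 by 0.76. IFIT2 was at 5.93, 6.19 and 6.20 in APP_NOSCA, against 5.53, 5.20 and 5.52 in WT_NOSCA. All its APP_NOSCA arrays were higher, with a difference of 0.69 that narrowly missed the threshold (SE 0.21, adjusted p = 0.051) and passed with the run as a block (adjusted p = 0.016), where 7.99% of all genes were called higher. IFITM2 differed by 0.01 (adjusted p = 0.98). Beside this, no immune or endothelial marker was called between APP_NOSCA and WT_NOSCA in limma, with 1 of each list at an unadjusted p under 0.05. S100B (-1.20) was lower, and 2 of 8 fibroblast markers were higher and 2 lower, with DCN at 1.28 and COL1A1 at -0.998. Their part was not tested.

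**Figure D2:**
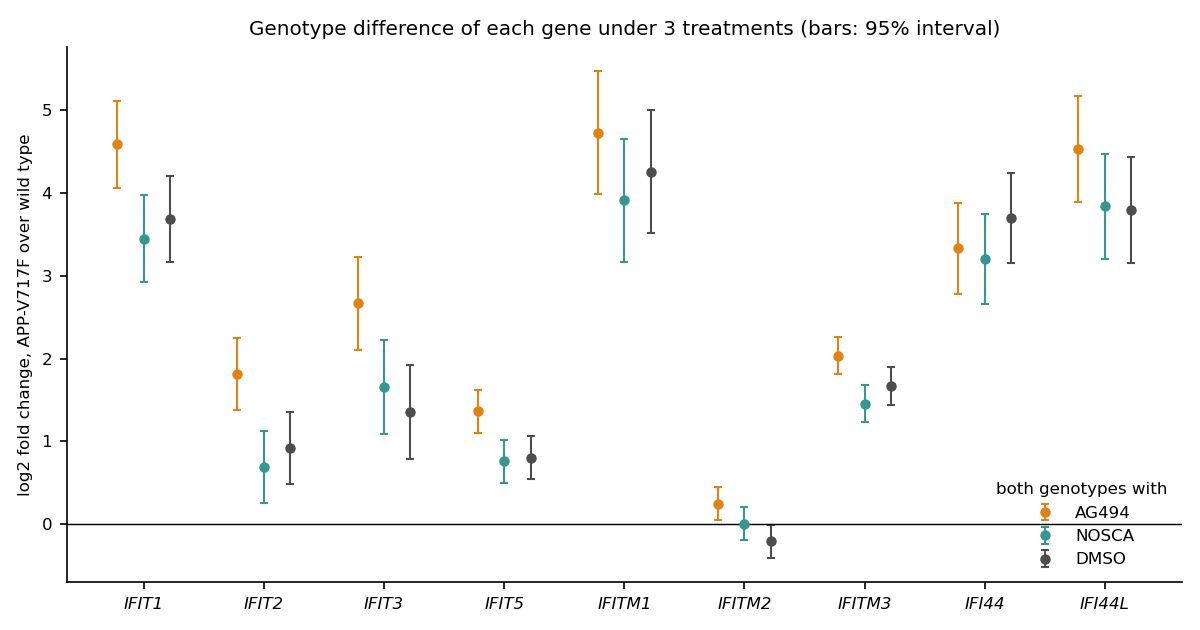
Log2 fold change of APP-V717F over wild-type cells (y axis, points, with the 95% interval of the fit as bars) for each gene (x axis), with AG494, NOSCA or DMSO given to both genotypes. The intervals lie above 0 under all 3 treatments for every gene but IFITM2, whose values run from -0.21 with DMSO to 0.25 with AG494.

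Over all treatments, all 9 APP arrays lay above all 12 WT arrays for 8 of the 9 genes, a separation that 287 genes (1.58%) showed. IFITM1 ranged from 8.87 to 11.23 with a median of 10.37 on the APP arrays, and from 5.70 to 6.82 with a median of 5.95 on the WT arrays. Its lowest APP array was about 2 units above its highest WT array. IFIT2 had the narrowest gap of the 8, with APP arrays from 5.79 to 7.52 (median 6.20) and WT arrays from 4.92 to 5.62 (median 5.44). IFITM2 overlapped, from 11.26 to 11.89 on the APP arrays (median 11.61) and from 11.23 to 11.76 on the WT arrays (median 11.56).

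In the order of group means, APP_AG494 came first for all 9 genes. For 8 of them, all but IFITM1, its arrays did not overlap those of the next group. APP_DMSO and APP_NOSCA came next for the 8 genes other than IFITM2 and overlapped each other for each of these. Below them the 4 WT groups overlapped their neighbours in the order for the same 8 genes. IFITM2 had another order, with APP_DMSO lowest of all 7 groups at 11.30 ± 0.07 and APP_AG494 highest at 11.80 ± 0.09 (SD, n = 3 each).

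In APP-V717F cells, the AG494 array lay above the DMSO array of the same run for all 9 genes in each of the 3 runs. The log2 fold changes of APP_AG494 over APP_DMSO ran from 0.51 to 1.35 with a median of 0.79, beside -0.01 over all genes. For 8 genes the arrays of the groups did not overlap, which 9.06% of all genes showed in this direction. Of the 9 genes, 6 were higher at the threshold, all 4 IFIT genes with IFITM2 and IFITM3, where 1.99% of all genes were called higher. With the run as a block, 8 passed, where 4.72% of all genes did.

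**Figure D3:**
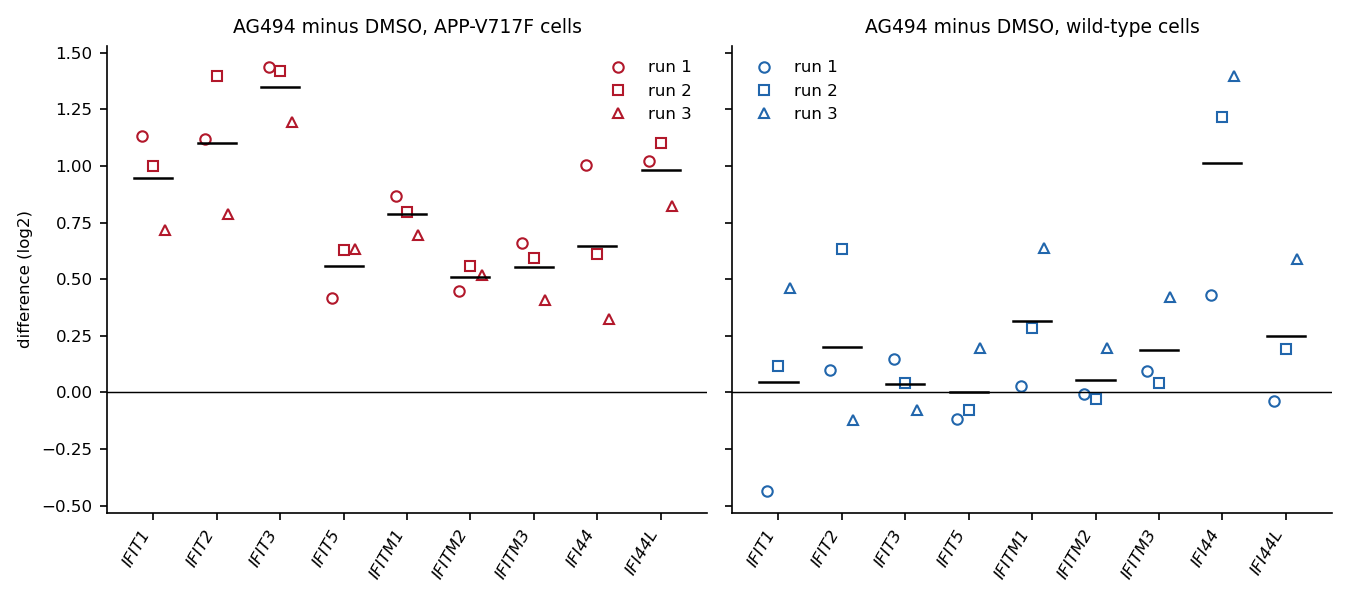
Difference in log2 intensity between the AG494 array and the DMSO array of the same run (y axis) for each gene (x axis), in APP-V717F cells on the left and wild-type cells on the right, with bars at the mean of 3 runs. In APP-V717F cells every difference lies above 0, and in wild-type cells most lie near 0, with IFI44 highest at a mean of 1.01.

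IFIT3 had the largest change. It was at 7.71, 8.71 and 8.70 in APP_AG494, against 6.27, 7.29 and 7.50 in APP_DMSO. In each run the treated array was higher by more than 1 unit, by 1.44, 1.42 and 1.19. IFIT3 rose by 1.35 (SE 0.27, adjusted p = 0.0054).

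IFIT2 was at 6.91, 7.50 and 7.52 in APP_AG494, against 5.79, 6.10 and 6.74 in APP_DMSO, and the groups did not overlap. It rose by 1.10 (SE 0.21, adjusted p = 0.0035). IFIT1 was at 10.84, 11.33 and 11.29 in APP_AG494, against 9.71, 10.33 and 10.57 in APP_DMSO. These groups did not overlap either, and the log2 fold change was 0.95 (SE 0.25, adjusted p = 0.033). IFIT5 was at 9.37, 9.85 and 9.94 in APP_AG494, against 8.95, 9.22 and 9.31 in APP_DMSO. All treated arrays were higher, and the gene rose by 0.56 (SE 0.12, adjusted p = 0.011).

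The call of IFIT1 was lost without replicate 1 or 2 of APP_DMSO or replicate 2 or 3 of APP_AG494 (adjusted p from 0.058 to 0.16). That of IFIT5 was lost without replicate 1 of APP_DMSO or replicate 2 or 3 of APP_AG494 (0.064 to 0.075). When only these 6 arrays entered the fit, 3 of the 9 genes passed, and none of the IFIT genes did (adjusted p from 0.057 to 0.13).

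IFITM2, which was not called between the genotypes under DMSO, rose here. It was at 11.70, 11.82 and 11.89 in APP_AG494, against 11.26, 11.26 and 11.37 in APP_DMSO. The groups were tight and did not overlap, and the log2 fold change was 0.51 (SE 0.096, adjusted p = 0.0036). IFITM3 was at 11.12, 11.36 and 11.14 in APP_AG494, against 10.46, 10.77 and 10.73 in APP_DMSO. All treated arrays were higher, with a change of 0.56 (SE 0.11, adjusted p = 0.0048). IFITM1 was at 10.37, 11.23 and 11.07 in APP_AG494, against 9.50, 10.44 and 10.37 in APP_DMSO. Its groups overlapped, with the run 1 array lowest in both, and the difference of 0.79 did not pass (SE 0.35, adjusted p = 0.27). Within runs the differences were 0.87, 0.80 and 0.69, and with the run as a block the gene passed (adjusted p = 0.04).

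IFI44L was at 10.75, 11.56 and 11.43 in APP_AG494, against 9.72, 10.45 and 10.61 in APP_DMSO. The groups did not overlap. The difference of 0.98 (SE 0.30) had an adjusted p of 0.074, and of 0.0015 with the run as a block. IFI44 was at 12.00, 11.99 and 11.80 in APP_AG494, against 11.00, 11.38 and 11.48 in APP_DMSO. All treated arrays were higher, by amounts that differed between the runs (1.00, 0.61 and 0.32). Its difference of 0.65 did not pass either way (SE 0.26, adjusted p = 0.2, and 0.077 with the block).

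All 20 probe sets of the 9 genes had a positive difference between APP_AG494 and APP_DMSO, and 8 were called. The 3 probe sets of IFI44L gave 0.93 to 0.98, and the dimmer IFIT2 probe set, not called between genotypes under DMSO, was called here at 0.48. Of the 6 IFI44 probe sets 1 was called, a dimmer one than the chosen one, at 0.88 (adjusted p = 0.02). Beside these results, the macrophage and lysosome marker CD68 was higher in APP_AG494 than in APP_DMSO by 0.52 (adjusted p = 0.0024), as 1 of 10 immune markers. The immune list mean was 6.22 to 6.26 in APP_AG494 and 6.14 to 6.21 in APP_DMSO. FAP, a fibroblast marker, was higher by 0.55 (adjusted p = 0.013), with fibroblast list means of 9.56 to 9.79 in APP_AG494 and 9.48 to 9.62 in APP_DMSO. Their part was not tested.

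In wild-type cells AG494 changed none of the 9 genes at the threshold in limma, where 0.254% of all genes were called. IFI44 was the 1 gene with an unadjusted p under 0.05. It was at 8.25, 8.45 and 9.10 in WT_AG494, against 7.83, 7.23 and 7.71 in WT_DMSO. All treated arrays were higher, by 0.43, 1.22 and 1.40 within the runs. The difference of 1.01 (SE 0.26) had an adjusted p of 0.14, and of 0.027 with the run as a block, where 1.09% of all genes were called higher. The other 8 genes differed by 0.00 to 0.32.

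The AG494 responses of the genotypes were compared through their difference, APP minus WT. None of the 9 genes passed, where 0.0386% of all genes did, and 6 had an unadjusted p under 0.05. IFIT3 had the largest value, 1.31 (SE 0.38, adjusted p = 0.26). Its difference was alike in the 3 runs (1.29, 1.38 and 1.27), and it was the 1 gene that passed with the run as a block (adjusted p = 0.039), where 0.524% of all genes were called higher. IFIT1 and IFIT2 had values of 0.90 each, IFI44L 0.73, IFIT5 0.56, IFITM1 0.47, IFITM2 0.45 and IFITM3 0.37. IFI44 had the only negative one (-0.37, 95% interval -1.14 to 0.40). Its sign depended on the probe set: of the 6 IFI44 probe sets 3 were positive, the values ran from -0.37 to 0.75, and none was called.

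NOSCA changed none of the 9 genes in either genotype in limma. Between APP_NOSCA and APP_DMSO no gene at all was called (0%), and of the 9 genes only IFITM2 had an unadjusted p under 0.05. It was at 11.61, 11.59 and 11.61 in APP_NOSCA, against 11.26, 11.26 and 11.37 in APP_DMSO. The groups did not overlap, and the difference of 0.31 (SE 0.096) had an adjusted p of 0.71. The other 8 genes ran from -0.38 for IFIT1 (95% interval -0.90 to 0.14) to 0.29 for IFIT3 (-0.27 to 0.86). This comparison shares its APP_DMSO arrays with that of AG494.

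Between WT_NOSCA and WT_DMSO the 9 genes differed by -0.14 to 0.43, and none passed, where 0.0165% of all genes did. IFITM3, at 0.25, was the 1 gene with an unadjusted p under 0.05 (adjusted p = 0.67). The difference of the NOSCA responses between the genotypes ran from -0.49 for IFI44 to 0.30 for IFIT3, and no gene passed (0%), with none of the 9 under an unadjusted p of 0.05.

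PALBO, given here to wild-type cells, was followed by a rise of IFI44 and by no other call among the 9 genes, where 6.98% of all genes were called and 3.11% were called higher. IFI44 was at 8.37, 8.76 and 9.10 in WT_PALBO, against 7.83, 7.23 and 7.71 in WT_DMSO. All treated arrays were higher, by 0.54, 1.53 and 1.39 within the runs. The log2 fold change was 1.15 (SE 0.26, adjusted p = 0.009). The call was lost without replicate 2 of WT_DMSO (0.98, adjusted p = 0.054) and without replicate 3 of WT_PALBO (0.98, adjusted p = 0.059). The 3 bright IFI44 probe sets rose by 1.01, 1.15 and 1.08, and the 3 dim ones, at 0.01, 0.08 and 0.14, were not called.

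IFI44L, the neighbour and relative of IFI44, was at 6.36, 6.54 and 6.97 in WT_PALBO, against 6.38, 6.41 and 6.62 in WT_DMSO. These groups overlapped, and the difference was 0.16 (SE 0.30, adjusted p = 0.88, 95% interval -0.48 to 0.79). The other 7 genes ran from -0.11 for IFITM2 to 0.39 for IFITM1. Beside this, 5 markers were called between WT_PALBO and WT_DMSO. The glial marker S100B was higher by 0.95, the neuroblast markers CHGA and ISL1 by 0.49 and 0.43 and the immune marker CD8A by 0.44, and the fibroblast marker COL1A1 was lower (-0.88). These went with glial list means of 7.38 to 7.49 in WT_PALBO and 7.19 to 7.26 in WT_DMSO and with immune list means of 6.15 to 6.27 in WT_PALBO and 6.14 to 6.24 in WT_DMSO. Their part was not tested. PALBO and AG494 in wild-type cells are set against the same WT_DMSO arrays, in which IFI44 had its lowest group mean.

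Between compounds, APP_AG494 was above APP_NOSCA for all 9 genes without overlap of the arrays, which 7.37% of all genes showed. Of the 9 genes, 4 were called higher, where 0.822% of all genes were. IFIT1 differed by 1.33 (SE 0.25, adjusted p = 0.0087), IFIT2 by 1.21 (adjusted p = 0.0045), IFIT5 by 0.70 (adjusted p = 0.0055) and IFITM3 by 0.51 (adjusted p = 0.018). IFIT3, at 1.06, narrowly missed the threshold (adjusted p = 0.055), IFI44L was at 1.08 (0.092), IFITM1 at 1.07 (0.18), IFI44 at 0.71 (0.24) and IFITM2 at 0.20 (0.45). With the run as a block, 7 passed, with IFIT3, IFITM1 and IFI44L added, where 2.82% of all genes were called higher. Without replicate 2 of APP_AG494, 2 of the 9 genes passed, and IFIT1 (adjusted p = 0.053) and IFITM3 (0.11) did not. IFITM3 was also lost without replicate 1 or 3 of APP_NOSCA (adjusted p = 0.089 and 0.06). In the limma fit over all probe sets, all 20 were positive between APP_AG494 and APP_NOSCA, and 8 were called. Among these 8 were 1 of 2 for IFITM1 (1.33, adjusted p = 0.022), 1 of 3 for IFI44L (1.27, 0.02) and 1 of 6 for IFI44 (1.02, 0.017).

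Among wild-type groups, WT_AG494 and WT_NOSCA differed by -0.06 to 0.59, WT_PALBO and WT_AG494 by -0.17 to 0.14, and WT_PALBO and WT_NOSCA by -0.20 to 0.73. None of the 9 genes passed in limma in these 3 comparisons, where 0.011%, 3.25% and 3.23% of all genes did. At an unadjusted p under 0.05 there were 1, 0 and 2 of the 9 genes.

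Set against vehicle-treated wild-type cells, all 9 genes were higher in APP_AG494, where 7.74% of all genes were called higher. The log2 fold changes ran from 0.30 for IFITM2 (SE 0.096, adjusted p = 0.037) to 5.04 for IFITM1 (SE 0.35, adjusted p = 8e-09). The IFITM2 call was lost without replicate 2 or 3 of APP_AG494 or replicate 3 of WT_DMSO, with only these groups in the fit, and with the mean of its probe sets (adjusted p from 0.1 to 0.17). Its other probe set gave 0.14 (adjusted p = 0.55). In APP_NOSCA, 8 were higher than in WT_DMSO, where 5.47% of all genes were, with IFITM2 at 0.10 (adjusted p = 0.61). IFIT2, at 0.81 (adjusted p = 0.014), lost its call there without replicate 2 or 3 of APP_NOSCA or replicate 2 of WT_DMSO (adjusted p from 0.054 to 0.087). Both comparisons use the WT_DMSO arrays of the genotype comparison.

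The arrays of run 1 were the low ones in APP-V717F cells. In APP_DMSO the run 1 array was the lowest of 3 for 9 of the 9 genes, as it was for 31.5% of all genes. In APP_AG494 it was the lowest for 8 of 9 (38.3% of all genes), with IFI44 the exception, and in APP_NOSCA for 8 of 9 (32.9%), with IFITM2 the exception. In wild-type cells run 1 was the lowest for 1 to 4 of the 9 genes, and in WT_NOSCA run 2 was the lowest for 8 of 9 (33.5% of all genes). The genes of an array share its RNA, and these counts are a description.

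The rest of the pathway was described with lists of its other genes. Between APP_DMSO and WT_DMSO, 5.2% of all genes were called higher and 4.05% lower. Among the other induced effectors, 22 of 31 were higher in APP_DMSO and none lower, and the list median was 1.26, beside 0.02 over all genes. OAS1, which makes the second messenger that activates RNase L, had the largest value among them (3.37, adjusted p = 1.5e-08). Of the interferon genes themselves, 0 of 17 measured were called in either direction in limma, with none at an unadjusted p under 0.05, a median of -0.00072 and all values between -0.05 and 0.23. Their group means in APP_DMSO and WT_DMSO ran from 4.55 to 6.12, in or near the dim range of the olfactory receptor probe sets. At such levels a change could go unseen.

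The counts of the next lists stand beside the same 5.2% of all genes called higher and 4.05% lower. Of 16 measured receptors and signal proteins, 3 were higher, none was lower, and the median was 0.08. These were IRF9, which binds the ISRE (1.39, adjusted p = 8.7e-07), and the transcription factors IRF7 (1.11) and IRF1 (1.04). The receptor chains IFNAR1 (0.17, adjusted p = 0.6) and IFNAR2 (0.06, adjusted p = 0.85) did not pass. Of 11 sensors and adaptors, IFIH1 (2.01, adjusted p = 1.3e-06) and RIGI (1.68, adjusted p = 7.6e-06), both receptors for viral RNA in the cytoplasm, were higher, with a list median of 0.09. Of 5 measured feedback inhibitors, SOCS3 (0.90, adjusted p = 1e-05) and PTPN2 (0.41, adjusted p = 0.005) were higher, with a list median of 0.10. IRF7, IRF1, IFNAR1, IFNAR2, RIGI and PTPN2 were chosen after their values were seen.

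**Figure D4:**
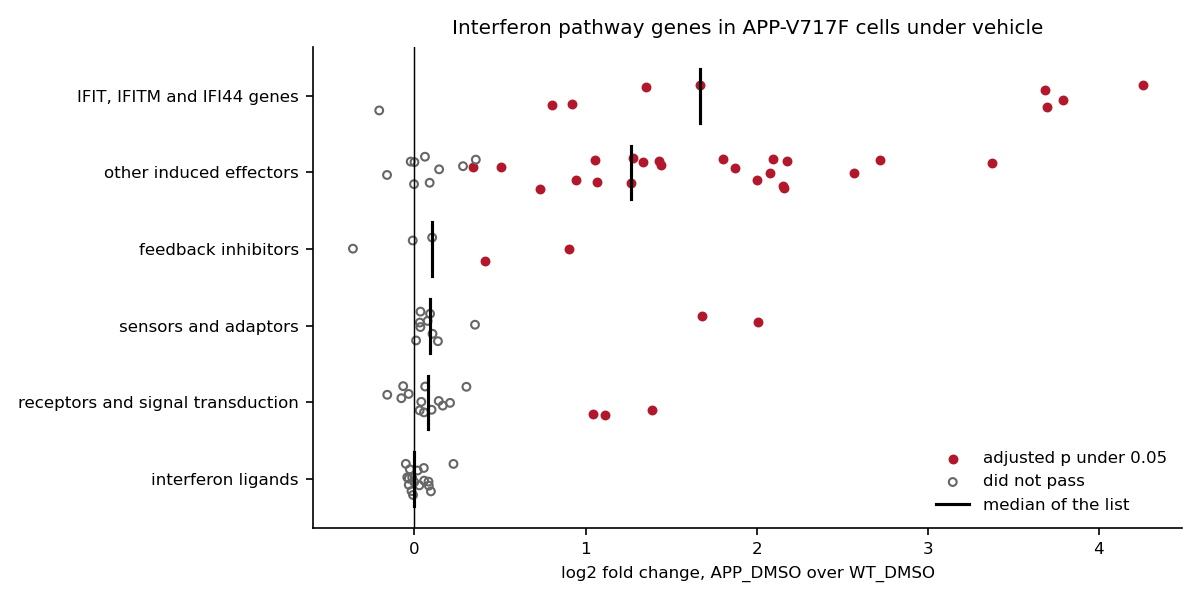
Log2 fold change of APP_DMSO over WT_DMSO (x axis) for the 9 genes and for the other pathway lists (y axis), 1 point per gene, filled where the adjusted p is under 0.05, with vertical bars at list medians. The 9 genes and the other induced effectors reach far to the right, with medians of 1.67 and 1.26, and the medians of the other lists lie at or below 0.10.

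Between APP_AG494 and APP_DMSO, 18 of 31 other effectors rose, none fell, and their median was 0.62, beside 1.99% of all genes called higher and a median of -0.01 over all genes. Of the sensors and adaptors 3 of 11 were higher, which were TLR3, a receptor for double-stranded RNA in endosomes (1.10), IFIH1 (1.06) and RIGI (0.99). Of the receptors and signal proteins 2 of 16 were higher, IRF1 (0.90) and IRF7 (0.53). None of 17 interferon genes and none of 5 feedback inhibitors was called in limma, with 1 of each list at an unadjusted p under 0.05. The interferon genes had dim group means of 4.60 to 6.12 in APP_AG494 and 4.63 to 6.12 in APP_DMSO, where a change could go unseen. No gene of these lists was lower. In wild-type cells AG494 was followed by a rise of 1 of 16 receptors and signal proteins, IRF1 (0.64). Of the 31 other effectors 1 rose there, PARP9 (0.71), and no other gene of these lists was called. The share of all genes called between WT_AG494 and WT_DMSO was 0.254%.

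Homologues of the 9 genes outside the group did not pass between APP_DMSO and WT_DMSO in limma, with 0 of 3 at an unadjusted p under 0.05. IFIT1B, which lies between the IFIT genes, was at 5.08 ± 0.16 in APP_DMSO and 5.03 ± 0.13 in WT_DMSO (SD, n = 3 each), a difference of 0.05 (adjusted p = 0.82). IFITM5 had a difference of -0.15 (adjusted p = 0.52), and IFITM10 one of -0.04 (adjusted p = 0.94). IFIT1B and also IFITM5, at 5.20 in APP_DMSO and 5.35 in WT_DMSO, lay within the dim range, where a change could go unseen.

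The genes next to the 3 clusters were also read, 5 measured protein-coding genes on each side. None of these 30 was called between APP_DMSO and WT_DMSO in limma, where 5.2% of all genes were called higher and 4.05% lower. At an unadjusted p under 0.05 there were 5 of the 30, and 3673 of all 18132 genes. The median log2 fold change of the 30 was 0.03. Beside the IFIT cluster they ran from -0.12 to 0.49, beside the IFITM cluster from -0.39 to 0.16, and beside the IFI44 pair from -0.21 to 0.25. The largest were those of ACTA2, a smooth muscle actin (0.49, adjusted p = 0.22), and FAS, a death receptor (0.47, adjusted p = 0.25), both next to the IFIT cluster. Some neighbours were dim, such as SLC16A12 (4.84 in APP_DMSO, 4.86 in WT_DMSO) and GIPC2 (4.90 and 4.84), where a change could go unseen.

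**Figure D5:**
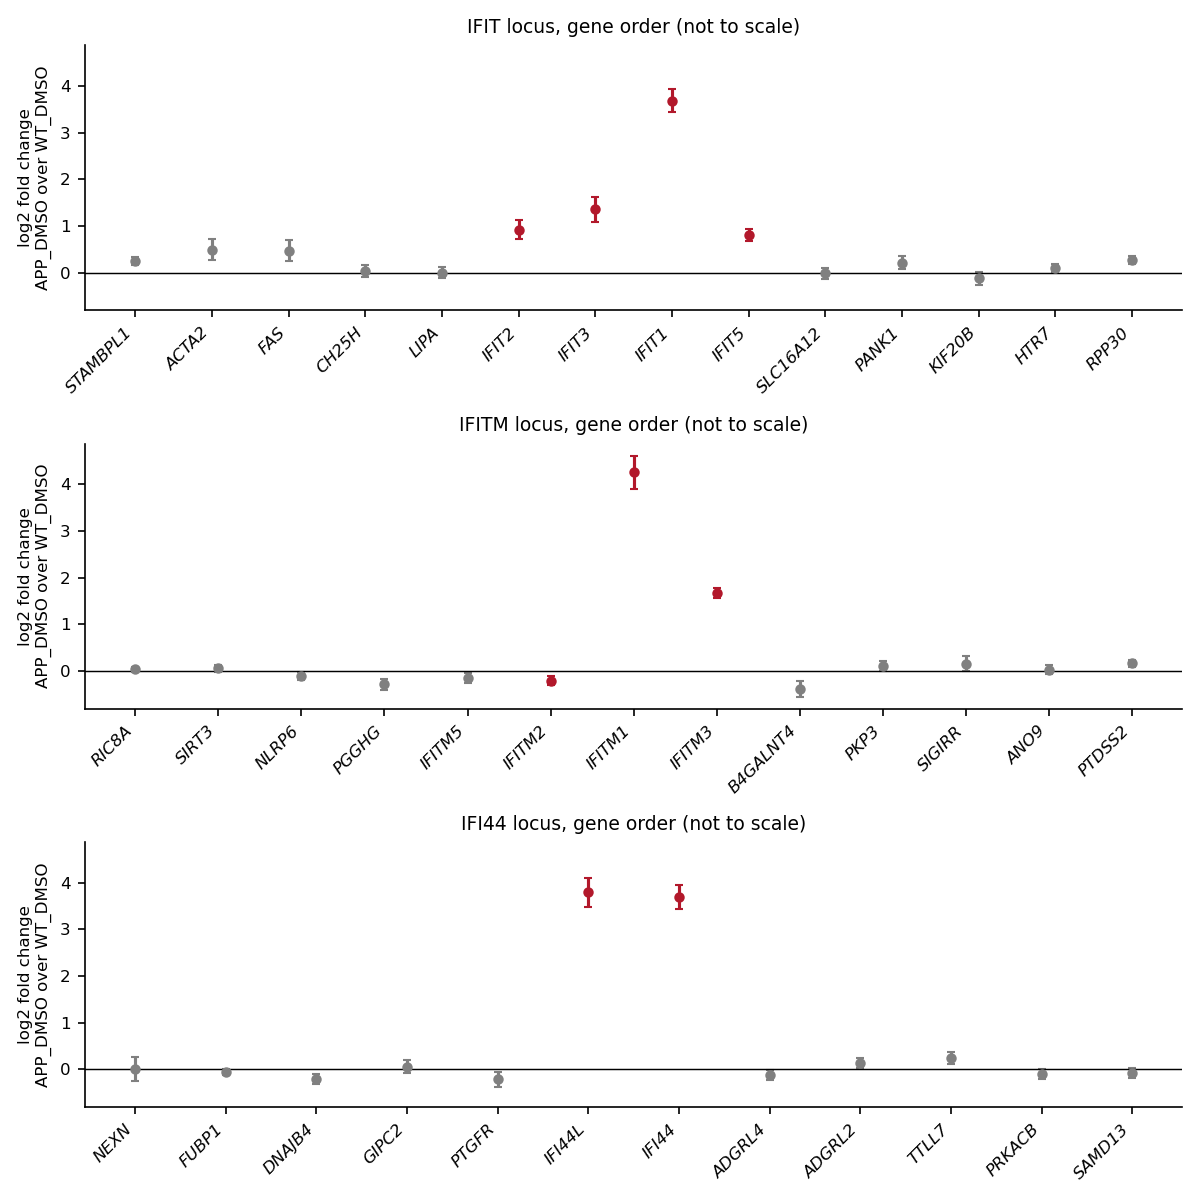
Log2 fold change of APP_DMSO over WT_DMSO (y axis, with bars of 1 standard error) for the genes of each cluster in red and 5 measured neighbours on each side in grey, in chromosomal order and not to scale (x axis). All 30 neighbours lie between -0.39 and 0.49, and of the cluster genes only IFITM2, at -0.21, lies in that range.

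Likeness of pattern was measured as the root mean square difference over the 7 group means, after each gene was centred on its own mean. IFIT1, IFITM1 and IFI44L were closest to each other among all genes. IFI44L was the nearest of all genes to IFIT1 (0.13), followed by IFITM1 (0.21), and IFITM1 lay 0.14 from IFI44L. The nearest genes outside the 9 were the same 3 for each of them, OAS1, GBP4 and TAP1, at 0.24, 0.31 and 0.37 from IFIT1, at 0.38, 0.45 and 0.50 from IFITM1 and at 0.28, 0.34 and 0.39 from IFI44L. IFI44 came 6th among all genes from IFIT1 (0.47), whereas IFIT3 was 29th, IFITM3 33rd, IFIT2 76th, IFIT5 115th and IFITM2 5221st. The measure rests on 7 points that share their arrays and gives most weight to the groups with the largest differences.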

How the data were processed

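Total RNA of the 21 cultures, 25 ng each, was amplified and hybridised to PrimeView arrays. The deposited table holds log2 intensity per probe set. Per the submitters' processing notes the authors made it by RMA with the affy package, whose versions are not given in the sources used here. The values were used as deposited, with no filter on dim genes. Of 49372 probe sets, 79 controls, 1832 with several gene symbols and 2473 not listed with a symbol were left out. Symbols were updated through Entrez ID, which matched RefSeq for 44961 of the 44988 remaining probe sets.

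All arrays entered 1 fit in limma 3.58.1 (R 4.3.3), with 1 coefficient per group and 14 residual and 4.27 prior degrees of freedom, in 16 contrasts. Two-sided p-values were adjusted over all genes within a contrast by the Benjamini-Hochberg method. Intervals are 95% intervals of the fit, and the number of arrays limits the precision. Promoters came from RefSeq, GRCh38.p14.

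Groups came from the labels. Replicates were numbered in the order of submission, which matches the runs of the sample titles. Deviations from group means correlated at 0.23 to 0.69 between arrays of the same run (63 pairs) and at -0.53 to 0.09 between arrays of different runs (126 pairs), and 21 of 21 arrays were nearest to their own run, so the runs pair the arrays. The fit without the block is the main one.

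The 9 genes and all lists were chosen with earlier results of these data known. By rule the text names these genes, the 3 genes nearest in pattern to IFIT1, IFITM1 and IFI44L, and the most changed called genes of each pathway list under DMSO. Other genes named were chosen after their values were seen. Alternatives were the run as a block, all probe sets or their mean, the dimmest 33.3% of genes left out, quantile normalisation again, median centring, array weights, a trended robust prior, a fit of only the groups compared, and each array left out. PALBO in APP-V717F cells was not analysed here.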

Additional observations from a re-analysis of the deposited data

How the results depend on the processing

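The count of the 9 genes that passed stayed within 1.5 times its value in 241 alternative fits over the 16 comparisons and moved further in 11. Of the repeats of single called changes, 724 kept direction and call, 29 lost the call and 0 reversed. The counts stayed at 8 with each array left out for APP_DMSO and for APP_AG494 against the wild type with the same treatment, and at 7 for NOSCA. With the replicate block the count was 1 for WT_AG494 against WT_DMSO, 1 for the difference of the AG494 responses and 7 for APP_AG494 against APP_NOSCA, and among the 9 genes the block changed no other call than those given with it above. Array weights gave 2 for the difference of the AG494 responses. With only the groups compared, 3 passed for APP_AG494 against APP_DMSO, 2 of them among the 6, and 2 for APP_AG494 against APP_NOSCA, 1 of them among the 4. Averaging the probe sets of each gene gave 8 for APP_AG494 against APP_NOSCA. With single arrays left out, the counts ran from 0 to 1 for WT_PALBO against WT_DMSO and against WT_NOSCA, from 4 to 7 for APP_AG494 against APP_DMSO, from 2 to 5 for APP_AG494 against APP_NOSCA, from 8 to 9 for APP_AG494 against WT_DMSO and from 7 to 8 for APP_NOSCA against WT_DMSO. Without the dimmest genes, 7 of the 9 genes were left. The causes of these changes were not tested. IFIT2, IFIT3 and IFITM1 are dim in wild-type cells, which limits what their folds can show, and 3 arrays per group limit every comparison.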

Other observations

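IFITM10, a homologue of the IFITM genes that was chosen after its values were seen, rose with PALBO in wild-type cells. It was at 8.77 ± 0.10 in WT_PALBO and 7.18 ± 0.20 in WT_DMSO (SD, n = 3 each), which is a difference of 1.59 (SE 0.15, adjusted p = 3.9e-06). IFIT1B and IFITM5 were not called in that comparison. Among the other induced effectors PALBO was followed by 2 higher and 1 lower of 31 genes, where 6.98% of all genes were called, with PARP9 at 0.85, DTX3L at 0.70 and HERC5 at -1.61. These 3 genes were also chosen after their values were seen.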
